A study of Caenorhabditis elegans with 8 samples.

Results

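The probes described here read genes from a stretch of the right arm of chromosome X of Caenorhabditis elegans that holds hpl-1 and his-24, the X-linked genes deleted in this study. They are the non-control probes whose array position starts between 12.0144 and 15.9882 Mb on X, with the probes of hpl-1 and his-24 themselves left out, and they number 631 of 20401 probes on the array and of 2870 on X. The array places 2007 other X probes to the left of the window and 230 to its right, so the window is not the very tip of the chromosome. The 631 members carry 627 gene identifiers, of which 596 were matched to a current symbol. The genome build behind the array positions is not named in the files, and the positions were used only as the array gives them.

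The study measured whole worms of deletion strains made in the N2 background with single-colour Agilent arrays. There are 2 arrays for each of 4 genotypes. The labels give hpl-1(tm1624) with his-24(ok1024), here called hpl-1 his-24. They also give hpl-2(tm1489) with his-24(ok1024), called hpl-2 his-24, and hpl-1(tm1624) with hpl-2(tm1489), called hpl-1 hpl-2. In the triple mutant all 3 alleles are combined. In the plots a semicolon separates genes on different chromosomes, since hpl-2 lies on chromosome III. Each sample was a pool of 80 to 100 animals grown at 21 °C, collected as L4 larvae and, by the labels, young adults. The study's methods give crossing as the origin of the combinations that include the his-24 deletion. How the remaining combination, hpl-1 hpl-2, was obtained is not described there. The methods also state fewer outcrosses for the his-24 single mutant than for the single mutants of the other genes. No wild type and no single mutant was analysed here, so each value compares deletion strains with each other. Because whole worms were pooled, fewer cells of a type and less RNA per cell cannot be told apart.

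HPL-1 and HPL-2 are the worm homologues of heterochromatin protein 1, which binds nucleosomes methylated on histone H3 lysine 9, and HIS-24 is a linker histone of the H1 family. A gene close to a deleted locus travels with it through crosses, so a strain can carry the neighbouring stretch of the chromosome in which the deletion was made. The X chromosome of hermaphrodites is dosage compensated and is expressed at a low level in the germline.

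Levels are log2 intensities relative to the 75th percentile of their array, which lay between 4613 and 8501 intensity units over a local background of 48 to 56.5. The probe of his-24 read 0.31 and 0.46 in hpl-1 hpl-2 and lay within background on all 6 arrays labelled with the his-24 deletion. The probe of hpl-1 went against 4 labels: it read -9.04 and -8.81, not well above background, in hpl-1 hpl-2, but -0.36 and -0.30 in hpl-1 his-24 and -0.60 and -0.53 in the triple mutant, close to -0.49 and -0.65 in hpl-2 his-24. The labels give the same hpl-1 allele to hpl-1 hpl-2, hpl-1 his-24 and the triple mutant, and none to hpl-2 his-24. The study's summary of its arrays does so too, but its phenotype table names a different hpl-1 allele for the hpl-1 hpl-2 double mutant. Which allele the hpl-1 hpl-2 arrays carry was not tested. Both hpl-2 probes were also above background in the genotypes labelled with the hpl-2 deletion, though lower than in hpl-1 his-24. The probe of K01G5.2a read -1.22 to -0.78 in them and 0.43 and 0.52 in hpl-1 his-24. The probe of K01G5.2b read 0.04 to 0.52 in them and 1.04 and 1.16 in hpl-1 his-24. The place of the hpl-1 and hpl-2 probes relative to the deleted parts was not tested. By these probes hpl-1 hpl-2 differed from the other 3 genotypes at both anchor genes, whose levels lay close together at hpl-1 and within background at his-24. Each genotype name below is therefore the name on the label, and comparisons by hpl-1 status are not drawn from hpl-1 his-24 or the triple mutant.

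Of the 631 members, 459 were well above background on all 8 arrays and 71 on none. A member entered the test if some genotype had it well above background on both arrays, which left 541 tested members and 90 that were not. Among all members, 70 were above background on both arrays of some genotype and on no array of another. Such a member passed the filter only through the genotype where it was high. Member medians ran from -3.07 to -2.79 over the arrays, against -2.78 to -2.54 for the rest of X and -1.90 to -1.63 for the other chromosomes. The median difference between the 2 arrays of a genotype was 0.11 in hpl-1 his-24, 0.13 in hpl-1 hpl-2, 0.14 for the triple mutant and 0.22 in hpl-2 his-24. Both hpl-2 his-24 arrays lay on 1 slide with a scan day of its own, and both hpl-1 his-24 arrays on slides of their own. For these genotypes slide and genotype cannot be told apart, while the triple mutant shared its 2 slides with hpl-1 hpl-2.

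Which members of the window differed between genotypes was asked for each of the 6 pairs, calling a member at a limma adjusted p under 0.05 and a log2 difference beyond 1.5. The triple mutant differed from hpl-1 hpl-2 at 24 called members, which is 4.44% of the tested members against 3.89% of all probes tested. The triple mutant had 16 of them higher and 8 lower, with backgrounds of 2.63% and 1.26%. Against hpl-1 his-24 the triple mutant had 57 called members, 10.5% against a background of 8.16%, with 42 higher (background 5.54%) and 15 lower (2.62%). Against hpl-2 his-24 it had 42, 7.76% against 10.8%, with 28 higher (9.33%) and 14 lower (1.5%). The first and second shares lay above their backgrounds and the third below.

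The comparisons among double mutants gave shares of the same order. hpl-1 hpl-2 differed from hpl-1 his-24 at 54 members, 9.98% against a background of 8.12%, with 34 higher (4.88%) and 20 lower (3.24%). hpl-2 his-24 differed from hpl-1 his-24 at 84 members, 15.5% against 16.5%, with 44 higher (6.77%) and 40 lower (9.71%). hpl-2 his-24 differed from hpl-1 hpl-2 at 37 members, 6.84% against 8%, with 21 higher (2.46%) and 16 lower (5.54%). At an adjusted p under 0.05 alone the counts in the 6 pairs were 151, 278, 267, 260, 371 and 279 members, against backgrounds of 22.5%, 41.9%, 50.9%, 39%, 65.7% and 51.4% of all probes. The members' own shares were 27.9%, 51.4%, 49.4%, 48.1%, 68.6% and 51.6%. The rest of X had lower shares of called probes than the window in each of the 6 pairs, 2.54%, 5.95%, 6.37%, 5.59%, 14.9% and 6.47% in the same order. In all, 138 of the 541 tested members, 25.5%, were called in at least 1 pair against 24.9% of all probes tested, and 403 in none.

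The split into higher and lower members moved with the scaling of the arrays. Quantile normalization gave 15 higher and 10 lower for the triple mutant minus hpl-1 hpl-2, 26 and 20 against hpl-1 his-24, and 22 and 23 against hpl-2 his-24, where it shifted the median of all probes from -0.00 to -0.11. For hpl-2 his-24 it gave 58 higher and 35 lower minus hpl-1 his-24, and 29 and 12 minus hpl-1 hpl-2. With normexp background correction the 3 splits of the triple mutant were 7 and 7, 11 and 9, and 19 and 8, and hpl-1 hpl-2 minus hpl-1 his-24 was 13 and 13. The same correction gave hpl-2 his-24 19 higher and 29 lower members minus hpl-1 his-24, and 9 and 12 minus hpl-1 hpl-2. The authors' deposited matrix gave 6 and 7, 11 and 7, 15 and 12, 14 and 12, 29 and 24, and 9 and 10 for the 6 pairs in the order above. Of the calls given below with values, both of these settings ended those of K08H2.5, of K08H2.2 for the triple mutant and for hpl-1 hpl-2, of jmjd-3.2, cyp-14A2 and eat-20. Normexp alone ended those of cyp-14A1 minus hpl-1 hpl-2, nspc-14 and fkh-3, and the deposited matrix alone those of ram-5, srd-39, cyp-14A4 minus hpl-2 his-24 and gpa-6 in hpl-2 his-24 minus hpl-1 hpl-2.

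**Figure D1:**
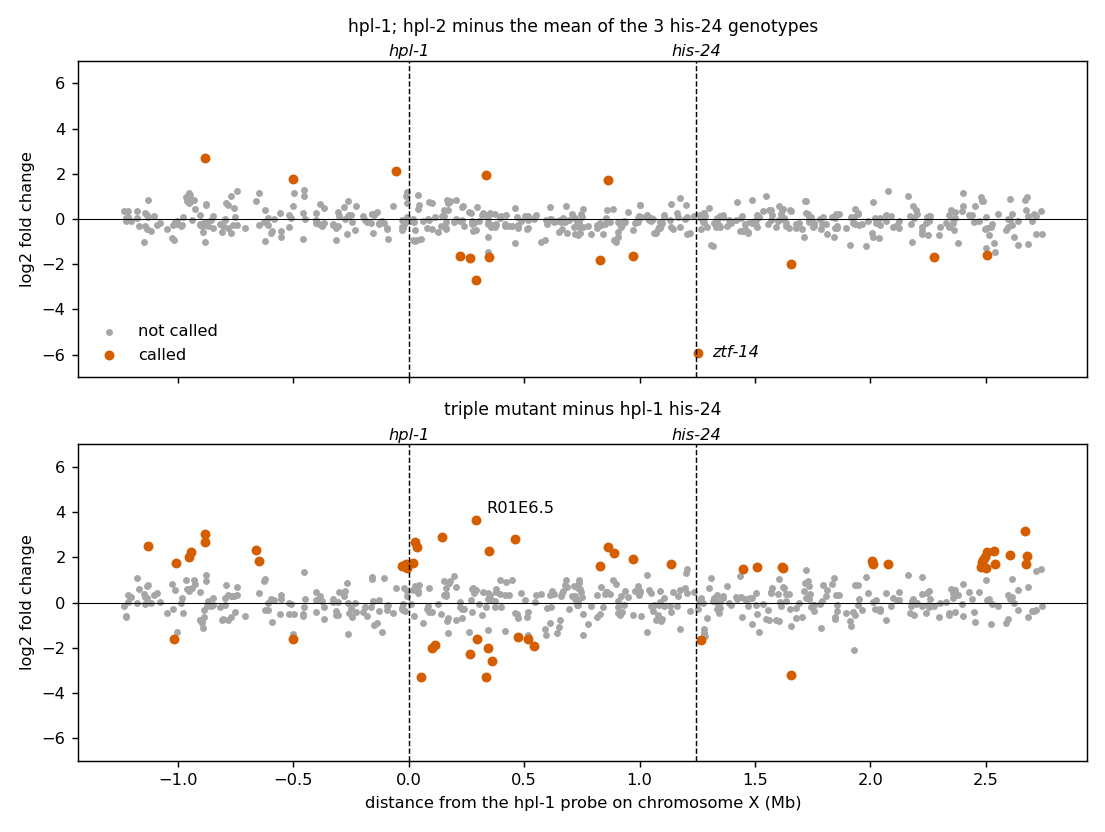
Log2 difference of each tested member (points) against its distance from hpl-1 in Mb, for hpl-1; hpl-2 minus the mean of the other 3 genotypes and for the triple mutant minus hpl-1; his-24, with dashed lines at hpl-1 and his-24 and called members in orange. Called members lie along the whole window, and the lowest point of the first panel is ztf-14, which was not above background in hpl-1; hpl-2, beside the his-24 line.

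Whether members differed by their distance from each deleted gene was described in bins. The hpl-1 and his-24 probes lie 1244.13 kb apart. Within 100 kb of hpl-1 lay 39 members, of which 32 were tested, and 9 of these, 28.1%, were called in at least 1 pair. Within 100 kb of his-24 lay 35 members, of which 30 were tested, and 10, 33.3%, were called in at least 1 pair. Over all probes tested 24.9% were called in at least 1 pair. In both stretches most tested members were called in no pair, 23 near hpl-1 and 20 near his-24.

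The median size of the log2 difference was taken in the same bins. For hpl-1 hpl-2 against the mean of the other 3 genotypes, the contrast that separates the probe levels of both anchor genes, it was 0.44 under 100 kb from hpl-1. In the next bins outward from hpl-1 it was 0.28, 0.30, 0.25 and 0.35, while all probes tested gave 0.25. Around his-24 the same contrast gave 0.27 under 100 kb and 0.26, 0.24, 0.35 and 0.31 in the next bins outward. For the triple mutant beside hpl-1 hpl-2, the pair whose arrays shared slides and whose labels differ at his-24, the median size was 0.44 under 100 kb from his-24 and 0.26 in the next bin. The same pair gave 0.30 under 100 kb from hpl-1 and 0.37, 0.31, 0.33 and 0.31 in the next bins. Differences of hpl-1 hpl-2 from hpl-1 his-24 and from hpl-2 his-24 had medians of 0.60 and 0.61 within 100 kb of hpl-1 and of 0.45 over all members in both pairs. These nearest bins hold 32 and 30 members, and no test was made on them. Over all 541 tested members, Spearman's rho between the size of the difference and the distance from either gene ran from -0.06 to 0.13 across the 7 comparisons. Neighbouring members share a chromosome segment and are not independent.

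**Figure D2:**
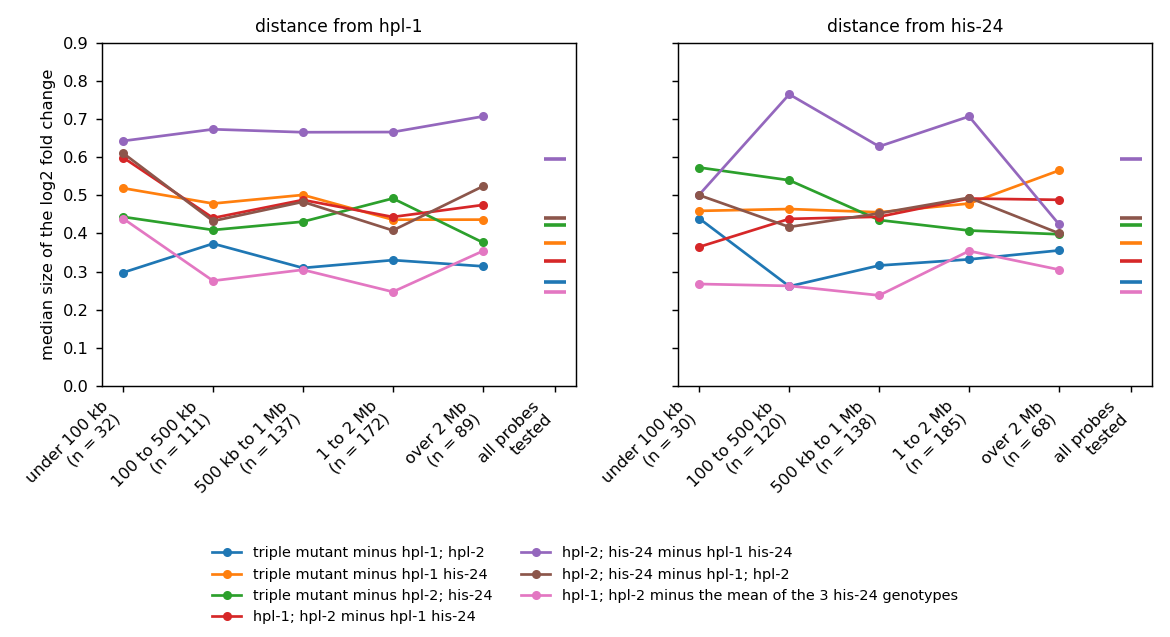
Median size of the log2 difference of members by distance from hpl-1 and from his-24, for the 6 pairs and for hpl-1; hpl-2 against the mean of the other 3, with the value over all probes tested at the right. The bin under 100 kb from hpl-1 stands at 0.44 for hpl-1; hpl-2 against the other 3, and no comparison falls steadily with distance from both genes.

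hpl-1 hpl-2, the only genotype in which his-24 is not deleted by label, was called against the mean of the other 3 at 15 members. That is 2.77% of the tested members, and the background was 2.77% as well, with 5 higher (1.41%) and 10 lower (1.37%). In 8 of the 15, both hpl-1 hpl-2 arrays lay outside the range of the other 6 arrays, 1.48% of the tested members against 1.95% of all probes tested. At the adjusted p alone, 190 members passed, 35.1% against 29.9%. Only gpa-6 among the 15 lay within 100 kb of hpl-1 and only ztf-14 within 100 kb of his-24. With normexp background correction 5 of the members were called, 3 higher and 2 lower, and with the deposited matrix 5, 2 higher and 3 lower. The calls of ztf-14, gpa-6, F19H6.5 and R01E6.5 held under each alternative in which they were tested. R01E6.5 was not among the 8 members whose hpl-1 hpl-2 arrays lay outside the others. hpl-2 his-24 was not above background for it either, and the triple mutant was highest, at a mean of -1.49. ztf-14 and R01E6.5 were not tested where a member had to be above background on all 8 arrays.

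ztf-14 encodes a zinc finger protein and lies 7.73 kb to the right of his-24, its probe at X 14498679 to 14498738. Its level was -2.26 and -2.45 in hpl-1 his-24, -2.35 and -2.50 in hpl-2 his-24 and -2.73 and -2.55 in the triple mutant. The hpl-1 hpl-2 arrays read -8.43 and -8.37, not well above background on either, so this genotype stood apart from the 6 other arrays, which overlapped among themselves. A bound on the fold was computed from the mean of the brighter genotype and, on each dim array, the higher of the probe's own level and the lowest signal among probes well above background. By this bound ztf-14 was higher than in hpl-1 hpl-2 worms by at least 19.4-fold in hpl-1 his-24 worms, at least 18.4-fold in hpl-2 his-24 worms and at least 15.9-fold in the triple mutant, with limma adjusted p = 2.17e-06, 3.2e-06 and 4.04e-06. The lowest signal well above background was lower on average in hpl-2 his-24 than in hpl-1 hpl-2. Bounds over these dim genotypes therefore differ for the same bright level and do not rank the dim genotypes. In the deposited matrix the log2 difference of the triple mutant was 2.95, and ztf-14 was called there as well. The levels of ztf-14 followed those of the hpl-1 probe with Pearson's r = 0.999 over the 8 arrays, the highest of 546 candidate probes, although the genes lie 1251.86 kb apart. In both probes the 2 hpl-1 hpl-2 arrays lie far below the other 6, which sets the correlation.

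The genes beside ztf-14 did not share its pattern. gfi-3, 6.6 kb to the left of his-24, read -1.60 and -1.57 in hpl-1 his-24, -0.12 and -0.44 in hpl-2 his-24 worms, -0.84 and -0.86 in hpl-1 hpl-2 worms and -1.16 and -1.09 in the triple mutant, and was called in no pair. M163.1, 12.3 kb to the right, lay between -3.36 and -2.83 on all 8 arrays and was called in no pair. M163.5 and M163.7 were not well above background on any array. M163.6, 27.2 kb to the left, was dim in all genotypes, at -6.49 and -6.40, -7.38 and -7.65, -6.98 and -8.13, and -7.09 and -6.57 in the same order, and hpl-1 hpl-2 was alone in not being above background. Its arrays overlapped with the others, and the gene was called in no pair. Among the 10 members nearest to his-24, besides ztf-14 only gcsh-1 was called. gcsh-1, the H protein of the glycine cleavage system, read 0.61 and 0.57 in hpl-1 his-24, -1.09 and -0.71 in hpl-2 his-24 worms, -0.45 and -0.36 in hpl-1 hpl-2 worms and -1.13 and -0.97 in the triple mutant. It was highest in hpl-1 his-24, and the triple mutant lay 1.64 below it (log2 difference -1.64, SE 0.14, limma adjusted p = 0.000296).

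**Figure D3:**
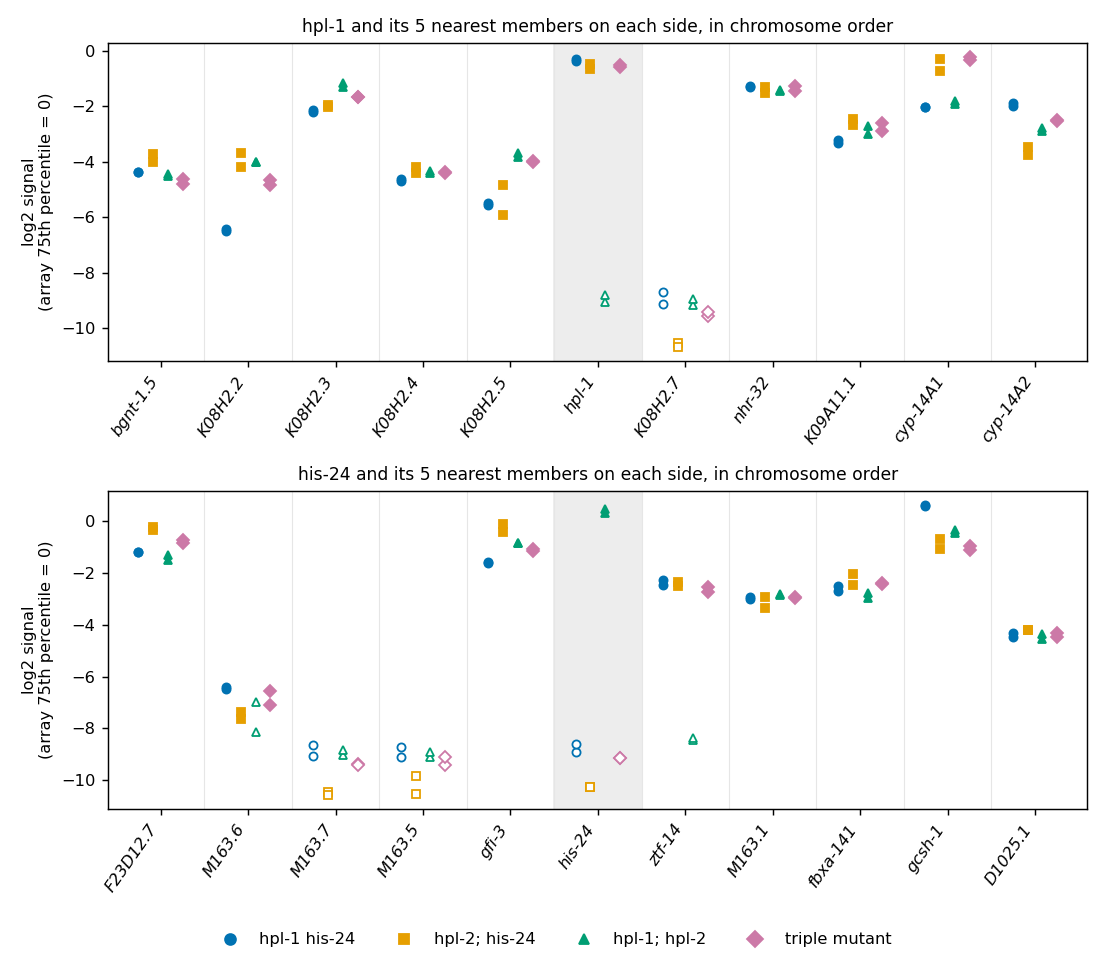
Log2 level relative to the array's 75th percentile of hpl-1, his-24 and the 5 nearest members on each side of both, 1 point per array, open where the genotype was not above background on both its arrays. ztf-14 drops in hpl-1; hpl-2 as the hpl-1 probe does, and the other neighbours above background on all arrays do not.

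Farther out, calls lay on both sides of his-24. ram-5, known for its part in shaping the rays of the male tail, lies 65 kb to the right and read -4.58 and -4.57 in hpl-1 his-24, -5.99 and -5.99 in hpl-2 his-24 worms, -5.94 and -5.71 in hpl-1 hpl-2 worms and -3.47 and -3.52 in the triple mutant. It was highest in the triple mutant, by 2.33 (SE 0.10, limma adjusted p = 5.37e-05) over hpl-1 hpl-2 and by 2.50 (adjusted p = 2.7e-05) over hpl-2 his-24. To the left, jmjd-3.2, of a family of histone H3 lysine 27 demethylases, lies 38 kb away and read -5.89 and -6.03 in hpl-1 his-24, -3.75 and -3.76 in hpl-2 his-24 worms, -4.64 and -4.66 in hpl-1 hpl-2 worms and -4.42 and -4.57 in the triple mutant. It was chosen after its values were seen, and rose by 2.21 in hpl-2 his-24 over hpl-1 his-24 (limma adjusted p = 1.11e-05), with the genotypes apart from each other except hpl-1 hpl-2 worms and the triple mutant, which were close.

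The member nearest to hpl-1, K08H2.7, 0.38 kb to the right, stayed within background on all 8 arrays. nhr-32, a nuclear hormone receptor gene 9.0 kb to the right, lay between -1.51 and -1.28 on all 8 arrays and was called in no pair. On the left, K08H2.4 lay between -4.70 and -4.20 and K08H2.3 read -1.30 and -1.17 in hpl-1 hpl-2 and between -2.21 and -1.66 elsewhere, and neither was called. K08H2.5, 5.8 kb to the left, read -5.54 and -5.47 in hpl-1 his-24, -4.85 and -5.91 in hpl-2 his-24 worms, -3.67 and -3.83 in hpl-1 hpl-2 worms and -3.99 and -3.97 in the triple mutant. Its 2 hpl-2 his-24 arrays spanned the hpl-1 his-24 level, and hpl-1 hpl-2 was higher than hpl-1 his-24 by 1.76 (SE 0.31, limma adjusted p = 0.00555). Its call in hpl-2 his-24 minus hpl-1 hpl-2, -1.63, was lost at -1.10 without the second hpl-2 his-24 array.

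K08H2.2, 12.6 kb to the left of hpl-1, read -6.43 and -6.49 in hpl-1 his-24, -4.19 and -3.67 in hpl-2 his-24 worms, -4.02 and -4.01 in hpl-1 hpl-2 worms and -4.82 and -4.67 in the triple mutant. The hpl-1 his-24 arrays lay below all others. hpl-2 his-24 was higher by 2.53 (SE 0.17, limma adjusted p = 5.49e-05) and hpl-1 hpl-2 by 2.45 (adjusted p = 0.00011), and with normexp background correction the latter was 1.47. The triple mutant was higher by 1.71 (adjusted p = 0.000503), and by 1.39, no longer called, under quantile normalization.

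gpa-6, which encodes a G protein alpha subunit, lies 53.4 kb to the left of hpl-1. It read -4.48 and -4.54 in hpl-1 his-24, -3.37 and -4.01 in hpl-2 his-24 worms, -1.99 and -1.83 in hpl-1 hpl-2 worms and -3.91 and -3.82 in the triple mutant. Both hpl-1 hpl-2 arrays lay above all others. The log2 difference was 2.61 over hpl-1 his-24 (SE 0.20, limma adjusted p = 0.000174), and the triple mutant lay below by 1.96 (log2 difference -1.96, adjusted p = 0.00133). hpl-2 his-24 minus hpl-1 hpl-2 was -1.79 (adjusted p = 0.00103), and -1.46, no longer called, without the second hpl-2 his-24 array. Over the 8 arrays the levels of gpa-6 were among the 3 most like those of the his-24 probe, with r = 0.894, after R04D3.4 with 0.915 and before blos-8 with 0.886. R04D3.4, 41 kb to the right of hpl-1, read 0.57 and 0.76 in hpl-1 hpl-2 and between -0.74 and -0.16 elsewhere, and was called in no pair.

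To the right of hpl-1 lie cyp-14A1 to cyp-14A4, a row of cytochrome P450 genes of the kind that oxidize lipids and foreign compounds. cyp-14A4, 35.2 kb away, read -5.50 and -5.39 in hpl-1 his-24, -4.70 and -5.15 in hpl-2 his-24 worms, -5.48 and -5.30 in hpl-1 hpl-2 worms and -3.05 and -2.95 in the triple mutant. The triple mutant arrays stood above the other 6, by 2.39 (SE 0.16, limma adjusted p = 0.000252) over hpl-1 hpl-2, 2.44 (adjusted p = 0.0001) over hpl-1 his-24 and 1.93 (adjusted p = 0.000418) over hpl-2 his-24. The last was 1.21, no longer called, in the deposited matrix.

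The other members of the row varied in their own ways. cyp-14A1, 18.2 kb away, read -2.03 and -2.04 in hpl-1 his-24, -0.72 and -0.28 in hpl-2 his-24 worms, -1.80 and -1.91 in hpl-1 hpl-2 worms and -0.35 and -0.23 in the triple mutant. hpl-2 his-24 overlapped with the triple mutant at the high end, and the triple mutant was higher than hpl-1 his-24 by 1.74 (SE 0.15, limma adjusted p = 0.000299) and than hpl-1 hpl-2 by 1.56 (adjusted p = 0.00105). cyp-14A2 read -1.99 and -1.88 in hpl-1 his-24, -3.74 and -3.47 in hpl-2 his-24 worms, -2.79 and -2.88 in hpl-1 hpl-2 worms and -2.51 and -2.52 in the triple mutant. It was lowest in hpl-2 his-24, where it fell by 1.67 below hpl-1 his-24 (log2 difference -1.67, adjusted p = 6.42e-05), and -1.47 was no longer called under quantile normalization. cyp-14A3 lay between -5.07 and -3.96 and was called in no pair. The nearby srd-39, a chemoreceptor gene 52 kb away, was above background on both arrays of hpl-1 his-24, at -5.07 and -5.01, and on 1 of the triple mutant. It was at least 9.01-fold over hpl-2 his-24 (adjusted p = 0.000643) and at least 3.01-fold over hpl-1 hpl-2 (adjusted p = 0.00339). Its neighbours srd-36, srd-38, srd-42 and srd-43 were not well above background on any array. No probe sequences were used here, so cross-hybridisation among cyp-14A, srd or nspc copies was not tested.

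Genes named nspc, a nematode-specific peptide family of unknown function, form 2 groups in the window. nspc-16 to nspc-19, 32.8 to 38.0 kb to the right of his-24, were lower in the triple mutant than in all other arrays. nspc-18, for example, read 1.80 and 2.04 in hpl-1 his-24, 1.77 and 2.66 in hpl-2 his-24 worms, 1.66 and 1.98 in hpl-1 hpl-2 worms and 0.65 and 0.49 in the triple mutant. The log2 differences of the 4 genes ran from -1.25 to -1.17 against hpl-1 hpl-2 (limma adjusted p = 0.0235 to 0.0289), from -1.49 to -1.34 against hpl-1 his-24 and from -1.67 to -1.41 against hpl-2 his-24. Only in the last did any pass the fold limit, 3 of 4, and without the second hpl-2 his-24 array these were -1.14, -1.20 and -1.26 and not called.

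The other group, nspc-9, nspc-10 and nspc-13 to nspc-15, was highest in hpl-2 his-24. nspc-10 read -1.01 and -0.87 in hpl-1 his-24, 0.49 and 1.00 in hpl-2 his-24 worms, -0.99 and -0.80 in hpl-1 hpl-2 worms and -1.62 and -1.83 in the triple mutant. hpl-2 his-24 lay at the top and the triple mutant at the bottom, with the other 2 genotypes overlapping between them. For all 5 genes the triple mutant was called below hpl-2 his-24, with log2 differences from -2.86 to -1.57, and without the second hpl-2 his-24 array nspc-14 was at -1.22 and not called.

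**Figure D4:**
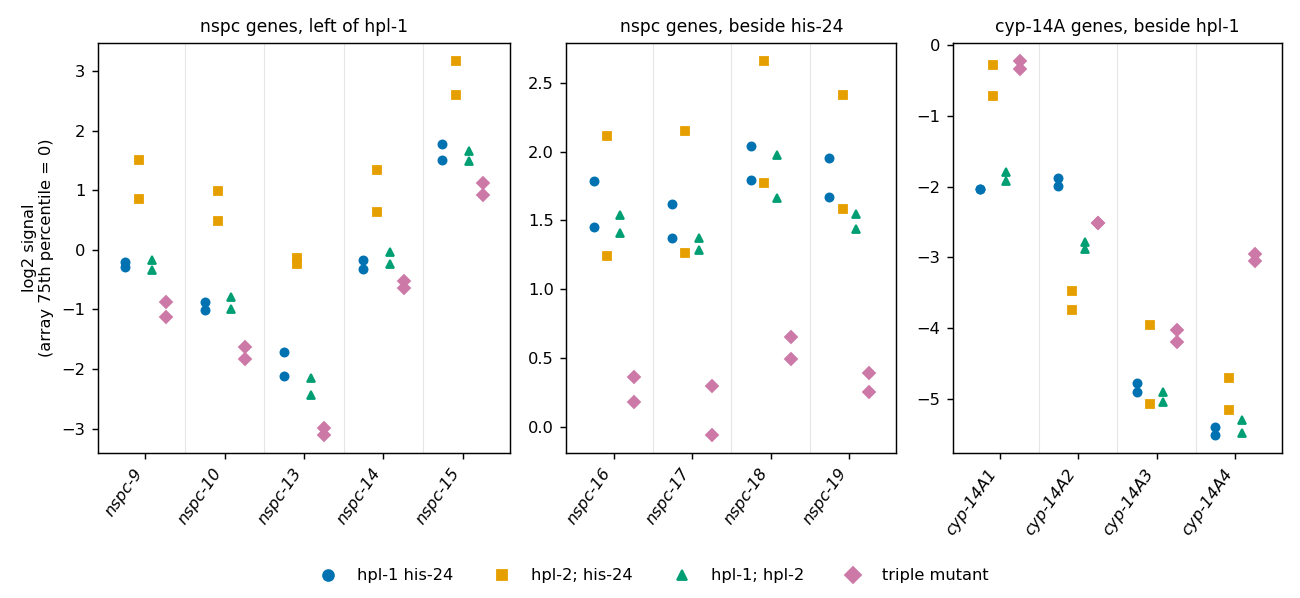
Log2 level relative to the array's 75th percentile of the nspc members and of cyp-14A1 to cyp-14A4, 1 point per array. nspc-16 to nspc-19 are lowest in the triple mutant, nspc-9 to nspc-15 highest in hpl-2; his-24, and only cyp-14A4 of its row is highest in the triple mutant alone.

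lin-15A and lin-15B, named for the synthetic multivulva classes A and B that oppose vulval induction, share an operon 1244.2 and 1240.6 kb to the right of his-24. lin-15A read -0.85 and -0.89 in hpl-1 his-24, 1.67 and 1.47 in hpl-2 his-24 worms, 1.34 and 1.35 in hpl-1 hpl-2 worms and 1.04 and 0.98 in the triple mutant. hpl-1 his-24 lay below all other arrays, by 2.44 (SE 0.10, limma adjusted p = 8.1e-06) against hpl-2 his-24, 2.21 (adjusted p = 2.14e-05) against hpl-1 hpl-2 and 1.88 (adjusted p = 4.11e-05) against the triple mutant. lin-15B read -1.55 and -1.59 in hpl-1 his-24, 0.87 and 0.58 in hpl-2 his-24 worms, 0.65 and 0.52 in hpl-1 hpl-2 worms and 0.12 and 0.37 in the triple mutant. The order of the genotypes was the same, with hpl-1 his-24 lower by 2.30 (SE 0.14, adjusted p = 3.37e-05), 2.16 (adjusted p = 7.86e-05) and 1.81 (adjusted p = 0.000163). hpl-1 his-24 was alone in having intact hpl-2 by label, and both its arrays were on slides of their own.

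The genes around the lin-15 pair varied otherwise. nhr-48, a nuclear hormone receptor gene, lay between -0.04 and 0.51 and was called in no pair. Y7A5A.3 read -5.69 and -5.57 in hpl-1 his-24, -1.72 and -2.59 in hpl-2 his-24 worms, -4.95 and -4.59 in hpl-1 hpl-2 worms and -3.36 and -3.31 in the triple mutant. It was lowest in hpl-1 his-24. The highest level was in hpl-2 his-24, by 3.48 (SE 0.28, limma adjusted p = 0.000108) over hpl-1 his-24 and by 2.61 (adjusted p = 0.000798) over hpl-1 hpl-2. wrt-4, a hedgehog-related gene, was lowest in hpl-2 his-24, but its replicates there read -5.43 and -3.25, against -0.65 and -0.48 in the triple mutant, a log2 difference of 3.78 (adjusted p = 0.00365).

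**Figure D5:**
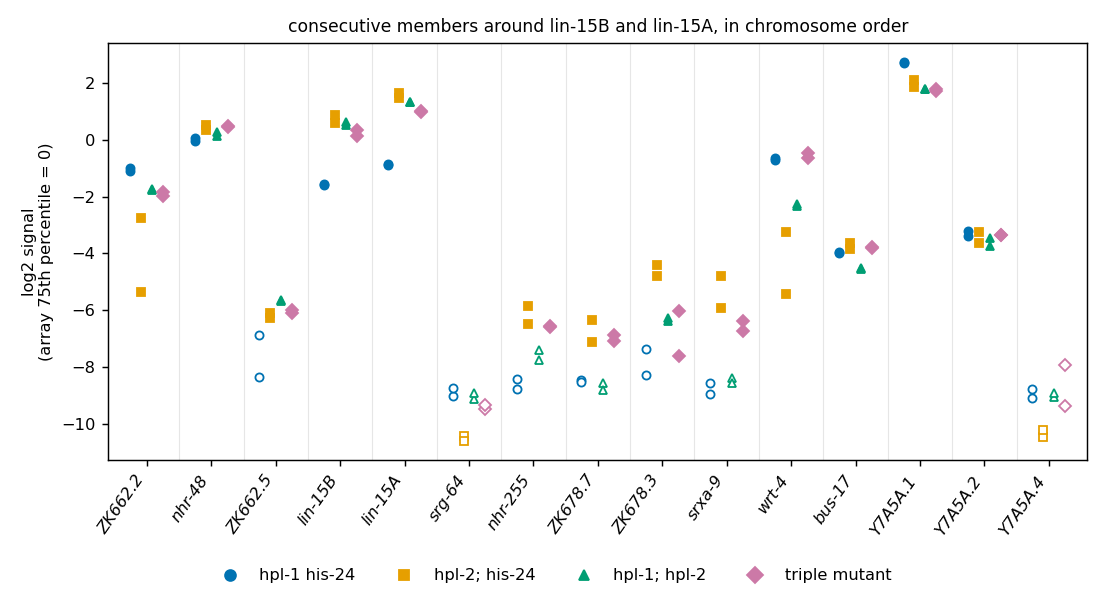
Log2 level relative to the array's 75th percentile of 15 consecutive members around lin-15B and lin-15A, 1 point per array. Both lin-15 genes are lowest in hpl-1; his-24. Dim neighbours such as ZK662.5 and ZK678.3 are lowest there too, while nhr-48 and wrt-4 do not follow that order.

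Elsewhere in the window, single members gave the largest differences. R01E6.5, 291 kb to the right of hpl-1, read -5.30 and -4.99 in hpl-1 his-24, -8.95 and -8.38 in hpl-2 his-24 worms, -7.42 and -8.18 in hpl-1 hpl-2 worms and -1.505 and -1.48 in the triple mutant. The triple mutant stood above all others, at least 106-fold over hpl-2 his-24 (limma adjusted p = 2.33e-05), at least 35.3-fold over hpl-1 hpl-2 (adjusted p = 5.85e-05) and by a log2 difference of 3.65 over hpl-1 his-24 (adjusted p = 0.000193). The bounds for R01E6.5 differ through the lowest usable signal of each dim genotype and do not rank hpl-2 his-24 below hpl-1 hpl-2. F19H6.5 and F19H6.6, next to each other 883 and 884 kb to the left of hpl-1, were high in different genotypes. F19H6.5 read -5.07 and -4.99 in hpl-1 his-24, -2.58 and -3.55 in hpl-2 his-24 worms, -0.92 and -0.66 in hpl-1 hpl-2 worms and -2.32 and -2.38 in the triple mutant, so hpl-1 hpl-2 was highest, by 4.24 (SE 0.29, adjusted p = 0.000107) over hpl-1 his-24. F19H6.6 read -5.37 and -5.53 in hpl-1 his-24, -3.66 and -4.72 in hpl-2 his-24 worms, -5.19 and -4.86 in hpl-1 hpl-2 worms and -2.44 and -2.42 in the triple mutant, highest in the triple mutant by 3.02 (adjusted p = 0.000677) over hpl-1 his-24 and by 2.59 (adjusted p = 0.00272) over hpl-1 hpl-2.

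Both gmap-3 and H06A10.1 were low in hpl-2 his-24. gmap-3 read -1.32 and -1.27 in hpl-1 his-24, -7.09 and -6.86 in hpl-2 his-24 worms, -3.01 and -3.15 in hpl-1 hpl-2 worms and -1.90 and -1.83 in the triple mutant, and fell by 5.68 below hpl-1 his-24 (log2 difference -5.68, SE 0.11, limma adjusted p = 1.26e-06). H06A10.1 read -0.77 and -0.62 in hpl-1 his-24, -4.97 and -5.07 in hpl-2 his-24 worms, -2.28 and -2.24 in hpl-1 hpl-2 worms and -1.97 and -1.99 in the triple mutant, and fell by 4.32 below hpl-1 his-24 (log2 difference -4.32, adjusted p = 1.44e-06). Both genes kept the 4 genotypes apart without overlap. F54B11.11 split them differently, at -2.09 and -1.85 in hpl-1 his-24 and -2.71 and -2.57 in hpl-1 hpl-2 but -6.39 and -6.49 in hpl-2 his-24 and -5.17 and -5.39 in the triple mutant, so that the triple mutant was below hpl-1 his-24 (log2 difference -3.31, adjusted p = 1.37e-05). pgp-14, an ABC transporter of the P-glycoprotein family, read -4.11 and -4.32 in hpl-1 his-24, -3.40 and -3.58 in hpl-2 his-24 worms, -2.58 and -2.71 in hpl-1 hpl-2 worms and -5.66 and -5.53 in the triple mutant. It was lowest in the triple mutant, by 2.95 against hpl-1 hpl-2 (log2 difference -2.95, SE 0.12, adjusted p = 4.82e-05). mxl-3, a Max-like transcription factor gene, was also lowest there, at -1.10 and -1.19 against 0.80 and 0.93 in hpl-1 his-24 and 0.41 and 0.58 in hpl-1 hpl-2 (log2 differences -2.02, adjusted p = 0.000297, and -1.65, adjusted p = 0.0015).

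eat-20, which encodes a membrane protein with EGF repeats and acts in the pharynx, resembled the hpl-1 probe after ztf-14, with r = 0.984, though it lies 2276.94 kb from hpl-1. It read -3.59 and -3.76 in hpl-1 his-24, -3.90 and -3.85 in hpl-2 his-24 worms, -5.33 and -5.59 in hpl-1 hpl-2 worms and -3.98 and -3.67 in the triple mutant. Both hpl-1 hpl-2 arrays lay below the rest, with a log2 difference of -1.79 from hpl-1 his-24 (SE 0.15, limma adjusted p = 0.00021). Normexp background correction gave -1.41 and the deposited matrix -1.27, neither called.

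The members were also read by function. Of 9 members with cuticle collagen or cuticle shape genes, all were tested and 6 called in at least 1 pair, against 24.9% of all probes tested. Of these 9, hpl-2 his-24 had 5 called lower and none higher than hpl-1 his-24, with a median log2 difference of -2.15, where 9.71% of all probes were called lower. hpl-1 hpl-2 had 4 lower and none higher, with a median of -1.45, where 3.24% of all probes were called lower. With normexp background correction and with the deposited matrix these counts were 3 and 2, since col-9 and col-186 in the former pair and col-9 and col-183 in the latter were no longer called. col-9 at -2.20 also lost its call in the latter pair without any 1 of the 4 arrays compared. The median over all probes tested was 0.03 in both pairs, and over the tested members 0.13 and -0.08. col-44 read -2.82 and -2.85 in hpl-1 his-24, -6.06 and -6.27 in hpl-2 his-24 worms, -5.84 and -5.75 in hpl-1 hpl-2 worms and -3.86 and -4.20 in the triple mutant, and fell by 3.33 in hpl-2 his-24 (log2 difference -3.33, limma adjusted p = 8.83e-06). col-185 was above background in hpl-1 his-24 worms at -4.85 and -4.44 and on 1 array of the triple mutant, and the former level was at least 11.9-fold over hpl-2 his-24 (adjusted p = 8.1e-06) and at least 3.96-fold over hpl-1 hpl-2 (adjusted p = 2.99e-05). col-182 read -3.87 and -1.30 in hpl-2 his-24, so its replicates there were far apart.

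By their median log2 level, larval cuticle markers had the genotype order of col-44. The median was highest in hpl-1 his-24, at 1.34, then 0.58 for the triple mutant. It was 0.45 for hpl-1 hpl-2 worms and -0.67 for hpl-2 his-24 worms. The list held 4 genes, col-17, rol-6, dpy-7 and bli-1, and whether each is confined to larvae was not tested. All were above background on all arrays. Their summed linear level relative to the 75th percentile was 11.1 and 11.9 in hpl-1 his-24 and 0.88 and 7.55 in hpl-2 his-24 worms. It was 5.81 and 6.19 in hpl-1 hpl-2 worms and 7.94 and 7.48 in the triple mutant. By these sums only the first hpl-2 his-24 array was low, and the second lay above both hpl-1 hpl-2 arrays. The part of these markers in the collagen result was not tested. lgc-21, a ligand-gated channel gene, had the genotype order of col-44. It read 0.31 and 0.35 in hpl-1 his-24, -4.71 and -2.73 in hpl-2 his-24 worms, -1.44 and -1.57 in hpl-1 hpl-2 worms and -0.24 and -0.33 in the triple mutant. hpl-2 his-24 was lower than hpl-1 his-24 by 4.05 (log2 difference -4.05, limma adjusted p = 0.0011).

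Chemoreceptor genes made up 25 members, of which 15 were not well above background on any array, 9 were tested and 3 were called in at least 1 pair, srd-39, sra-37 and srxa-9, beside 24.9% of all probes. With normexp background correction only srd-39 was called, and with the deposited matrix none. Of 24 transcription factor members 17 were tested and 6 called in at least 1 pair, ceh-40, fkh-3, fkh-4, ceh-89, nhr-255 and ztf-14, beside the same 24.9%. Normexp background correction left fkh-4 and ztf-14 called, and the deposited matrix these and fkh-3. The forkhead genes fkh-3 and fkh-4 are neighbours 175 and 180 kb to the right of hpl-1. fkh-4 read -2.65 and -2.61 in hpl-1 his-24, -1.25 and -0.94 in hpl-2 his-24 worms, -1.02 and -0.96 in hpl-1 hpl-2 worms and -1.74 and -1.61 in the triple mutant, lowest in hpl-1 his-24 and higher by 1.64 in hpl-1 hpl-2 (limma adjusted p = 0.000163). fkh-3 followed the same order, at -2.31 and -2.31, -1.09 and -0.77, -0.81 and -0.77, and -1.41 and -1.45, with a difference of 1.52 (adjusted p = 0.000184).

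The remaining lists are described by their counts, to be read beside the same share of all probes. Of 9 defence and detoxification members 4 were called in at least 1 pair, cyp-14A1, cyp-14A2, cyp-14A4 and cyp-13B1, whose 2 probes read 1.32 and 1.51 for the triple mutant minus hpl-2 his-24, on either side of the limit. Both alternatives left cyp-14A1 and cyp-14A4 called. Of 14 members with receptors of transmitters and peptides, 11 were tested and 3 called, lgc-15, lgc-21 and npr-40, and both alternatives left lgc-21 alone. None was called among 4 tested members with neuropeptides and insulins, 8 with ion channels and synapse genes and 6 with signalling and cell adhesion genes.

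Adjacent calls were counted along the window. In the 6 pairs, in the order of the counts above, 8.33%, 31.6%, 35.7%, 24.1%, 33.3% and 18.9% of the called members had a neighbour called in the same direction. Over all probes the shares were 29.5%, 35.5%, 36.0%, 33.0%, 35.8% and 25.1%, and on the rest of X 12.2%, 21.7%, 17.9%, 17.6%, 22.0% and 17.6%. Among members called for hpl-1 hpl-2 against the mean of the other 3 it held for 0 of 15, as for 0 of 20 on the rest of X, where all probes gave 23.7%.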

How the data were processed

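The authors deposited Agilent Feature Extraction output (version 9.5.3.1 per the file headers), in which each spot has a background-subtracted Cy3 intensity, and a series matrix of their own processed log2 values. The submitters' processing notes name Agilent Feature Extraction and limma. Here log2 processed intensity minus the 75th percentile of each array was averaged over the spots of a probe. limma 3.58.1 in R 4.3.3 was fitted by genotype to the 17352 probes that some genotype had above background on both arrays, with Benjamini-Hochberg adjustment over all of them. The same steps were tested on simulated data with known changes. The 2 samples of a genotype are separate pools of worms, their number limits the precision, and an exact permutation test of 2 against 2 could not go below p = 0.333.

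Named members were the 5 nearest on each side of both genes, the 3 largest called rises and falls per comparison, the 5 largest bounds, called members of the gene lists and the 3 most like each anchor probe. Members outside this rule, such as jmjd-3.2, cyp-14A3, nhr-48, srd-36 and most nspc genes, were added by position or after their values were seen. Members and lists were chosen with earlier results of these data known. Names came from a WBcel235 gene table. Alternatives were quantile normalization, normexp, the deposited matrix, other filters and thresholds, leaving out each array, and slide or replicate blocks.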

Additional observations from a re-analysis of the deposited data

How the results depend on the processing

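Counts of called members are given in the order of the report, with the 3 pairs of the triple mutant, the 3 pairs among double mutants and, last, hpl-1 hpl-2 compared with the mean of the others. The values reported were 24, 57, 42, 54, 84, 37 and 15. The adjusted p alone gave 151, 278, 267, 260, 371, 279 and 190, and a log2 limit of 1 gave 61, 109, 86, 101, 185, 97 and 44. Normexp background correction gave 14, 20, 27, 26, 48, 21 and 5, and the deposited matrix 13, 18, 27, 26, 53, 19 and 5. Only members above background on all 8 arrays left 13, 32, 32, 37, 62, 26 and 6. Testing all members without a filter gave 24, 56, 46, 53, 125, 67 and 15. Leaving out each array gave 22 to 25, 50 to 58, 38 to 47, 47 to 55, 77 to 112, 33 to 42 and 13 to 16. Same-numbered arrays did not deviate together (correlations of deviations -0.299 to 0.178), so the numbers do not pair the samples, and a replicate block left the counts at 24, 57, 42, 54, 84, 37 and 15. Slide as a random block gave 85 for the fifth comparison and the same counts otherwise. Slide as a fixed block, fitted to the 4 arrays of the first pair, gave 25, as did these arrays without a block. Of 1393 alternative values for 87 named results, 1290 were still called, 103 were not, 30 of them with the deposited matrix, 29 with normexp and 39 without a single array, and 0 changed sign. These results were named because they were called, and several alternatives refit the same values. The total of 1290 is therefore in part set by that choice. Members at or near background set a limit: a fold there is only a bound.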
